A study of Sus scrofa with 6 samples.

Results

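The genes described here encode enzymes of glycolysis and of glycogen control in pig skeletal muscle, namely *HK2*, *GPI*, *PFKFB4*, *ENO1* and *GSK3B*. All differentially methylated regions (DMRs) whose gene symbol was one of these 5 were taken from the table of 15633 listed DMRs, which gave 8 DMRs, 1 each in *HK2*, *GPI* and *PFKFB4*, 2 in *ENO1* and 3 in *GSK3B*. Matching was by human symbol, or by pig symbol for DMRs that had no human one. Together they covered 1789 bp and 59 CpGs.

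Methylated DNA immunoprecipitation sequencing (MeDIP-seq) had been carried out on *longissimus dorsi* muscle (LDM), a pale muscle of the back with mostly fast glycolytic fibres, and on *psoas major* (PMM), the redder and more oxidative muscle of the loin. All animals were female Landrace pigs aged 210 days, without feed before slaughter. Each muscle had 3 libraries, and by the study's methods 3 pigs were used and all gave both muscles. DNA came from bulk muscle, so that a different share of a cell type and a different methylation within the cells cannot be told apart. The table holds DNA regions and no expression, so the muscle labels could not be checked against marker genes.

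In glycolysis, glucose is trapped in the cell as glucose 6-phosphate, turned into fructose 6-phosphate, committed to breakdown at the phosphofructokinase step and finally converted to pyruvate. Glycogen is the store from which a working fibre draws the same sugar phosphates, and fast fibres rely on this route more than oxidative fibres do. DNA methylation within gene bodies is common in transcribed genes, and its relation to expression can differ from that of promoter methylation. The study itself reported a negative correlation with expression for both, weaker for gene bodies. In MeDIP-seq, an antibody against methylated cytosine pulls down DNA fragments, and a region gives more reads when it holds more methylated CpGs on the same fragment. Values are the scaled mean read depth per CpG of a DMR in each library, called depth below. Over all listed DMRs the median depth of a library ran from 26.2 to 28.0 in LDM and from 23.8 to 25.4 in PMM.

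The question was in which direction, and how strongly, the DMRs of these enzymes differed between the glycolytic and the oxidative muscle. The intron DMRs of *HK2*, *GPI* and *PFKFB4* had a higher depth in PMM. *ENO1* and *GSK3B* held DMRs of both directions, and the largest difference of the 8 was a loss in PMM in an exon of *ENO1*. Gains in PMM numbered 5 and losses 3. The depths of the muscles were fully separated in all 8, which is also the case for 100% of the listed DMRs. An adjusted p under 0.05 (limma on log2(depth + 1), Benjamini-Hochberg over all listed DMRs) was reached by all 8, and by 99.9% of the listed DMRs. The calls were 5 higher, against 55.9% of the listed DMRs, and 3 lower, against 44.0%. The regions had been put on the list because they differed between these same libraries, so these counts carry no information of their own about the 5 genes. The adjusted p-values below only set the size of each difference beside the variation of the libraries.

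**Figure D1:**
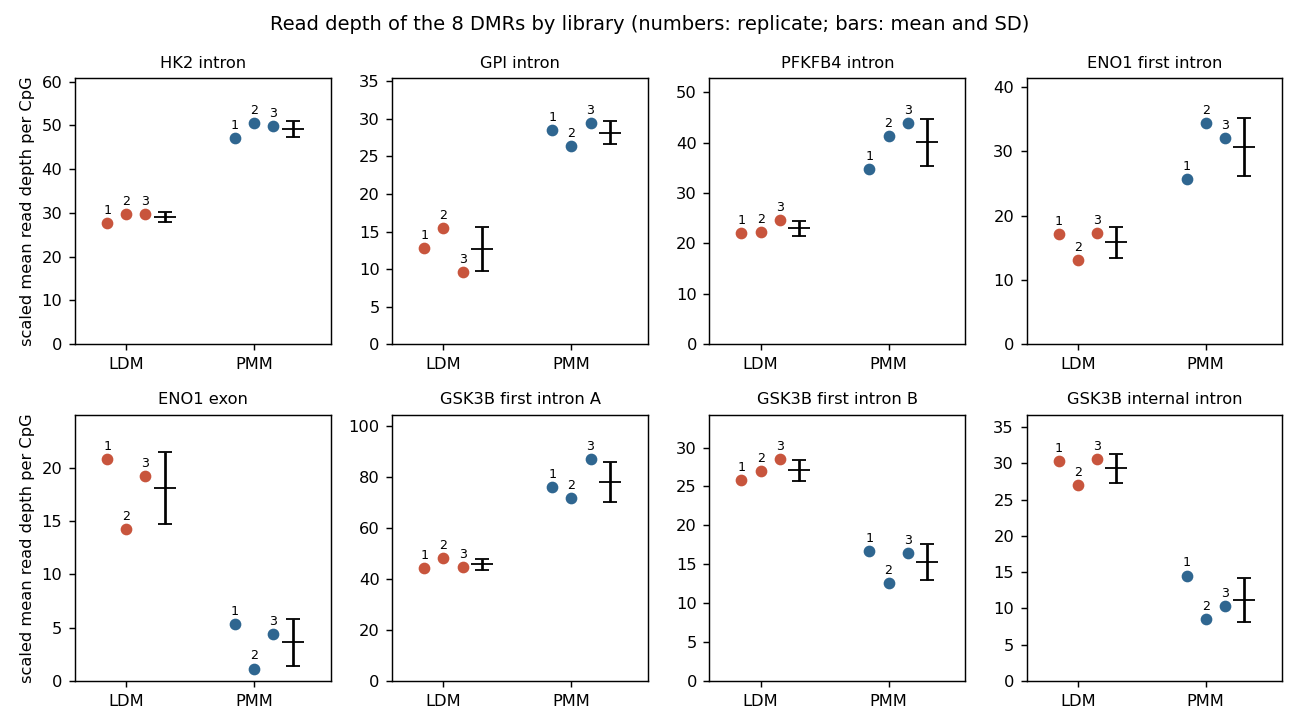
Depth (scaled mean reads per CpG) of the 8 DMRs in each library, with the replicate number beside each point and the mean and SD of the 3 libraries at the right. The muscles do not overlap in any panel, and the *ENO1* exon shows the lowest PMM values, from 1.16 to 5.33.

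*HK2* encodes hexokinase 2, the main hexokinase of insulin-sensitive muscle, which phosphorylates glucose on its entry into the cell. Its DMR lay in an internal intron on chromosome 3 from 71354638 to 71354914 (Sscrofa10.2) and had 8 CpGs in 277 bp. LDM replicates 1 to 3 gave depths of 27.6, 29.8 and 29.7, while PMM replicates 1 to 3 gave 47.1, 50.6 and 49.8. Both muscles were tight, and the lowest PMM library lay well above the highest LDM library. The coefficient of variation was 4.19% in LDM and 3.70% in PMM, against medians of 11.6% and 11.8% over all listed DMRs. The mean rose from 29.0 ± 1.22 in LDM to 49.2 ± 1.82 in PMM (SD, n = 3). On the log2(depth + 1) scale the difference was 0.74 (SE 0.11, adjusted p of limma 0.00028), a 1.67-fold higher depth + 1, the quantity to which all folds here refer. In size this was modest for the list, since it exceeded 33.4% of the 8751 DMRs that were higher in PMM.

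*GPI* encodes glucose 6-phosphate isomerase, which turns glucose 6-phosphate into fructose 6-phosphate. Its DMR lay in an internal intron on chromosome 6 from 39530732 to 39531213 and was among the longest on the list, with 11 CpGs in 482 bp. In this region LDM replicates 1 to 3 gave depths of 12.8, 15.5 and 9.61, while PMM replicates 1 to 3 gave 28.5, 26.4 and 29.5. The LDM libraries differed more among themselves than the PMM libraries, with a coefficient of variation of 23.2% against 5.54%. The means were 12.6 ± 2.93 and 28.1 ± 1.56 (SD, n = 3), and the difference of 1.12 (SE 0.19, adjusted p of limma 0.000421) was 2.17-fold. It was the largest of the 5 gains and exceeded 80.8% of the DMRs that were higher in PMM. LDM replicate 3 was the lowest library, and without it the log2 difference was 0.95.

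*PFKFB4* encodes a bifunctional enzyme that makes and breaks down fructose 2,6-bisphosphate, the strongest activator of phosphofructokinase. Its DMR lay in an internal intron on chromosome 13 from 34492013 to 34492190, with 7 CpGs in 178 bp. LDM replicates 1 to 3 gave depths of 22.0, 22.4 and 24.7, while PMM replicates 1 to 3 gave 34.8, 41.4 and 43.9. PMM replicate 1 was nearest to LDM but still clearly apart from it. The means were 23.0 ± 1.44 and 40.0 ± 4.72 (SD, n = 3), and the change on the log2 scale was 0.77 (SE 0.14, adjusted p of limma 0.000479), or 1.70-fold. This exceeded 37.9% of the DMRs that were higher in PMM, so that *HK2* and *PFKFB4* both stood in the lower part of the listed gains.

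*ENO1* encodes enolase 1, which catalyses the step before the last in glycolysis, the formation of phosphoenolpyruvate. The enolase typical of mature muscle is *ENO3*, and no listed DMR carried that symbol. The *ENO1* DMRs lay 3291 bp apart on chromosome 6 and differed in direction. The DMR in the first intron, from 63742290 to 63742371, had 5 CpGs in 82 bp and depths of 17.2, 13.1 and 17.3 in LDM replicates 1 to 3. PMM replicates 1 to 3 gave 25.7, 34.4 and 32.0. It was therefore higher in every PMM library, with means of 15.8 ± 2.41 and 30.7 ± 4.51 (SD, n = 3) and a change of 0.91 on the log2 scale (SE 0.18, adjusted p of limma 0.000723), or 1.88-fold.

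The other *ENO1* DMR, from 63745663 to 63745732, lay in an internal exon and was also annotated to a CpG island, as were 226 of the listed DMRs. It had 5 CpGs in 70 bp. LDM replicates 1 to 3 gave depths of 20.8, 14.3 and 19.2, while PMM replicates 1 to 3 gave 5.33, 1.16 and 4.37. All PMM libraries were low, and PMM replicate 2 was close to 0. The mean fell from 18.1 ± 3.39 to 3.62 ± 2.18 (SD, n = 3), which was -2.17 on the log2 scale (SE 0.39, adjusted p of limma 0.000537) and 4.51-fold lower in depth + 1. The ratio of the mean depths themselves, PMM over LDM, was 0.200. Of the 6882 DMRs that were lower in PMM, 93.6% had a smaller difference. Without PMM replicate 2 the difference was -1.70. With a pseudocount of 4 in place of 1 the fold was 2.97, and with quantile normalization 2.68. Undoing the scaling, PMM replicate 2 had 5 overlaps of a read with a CpG in this DMR, and PMM replicates 1 and 3 had 22 and 21, against 69 to 104 in LDM. A single read can lie over several CpGs, so the number of reads was smaller still, and the size of the fold is less certain than its direction. Elsewhere among the 8 DMRs a library had at least 54 such overlaps and at most 753.

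*GSK3B* encodes glycogen synthase kinase 3 beta, which phosphorylates and restrains glycogen synthase and also acts in insulin and Wnt signalling. Its 3 DMRs lay on chromosome 13. The DMR called A, from 149463115 to 149463644 in the first intron, had 9 CpGs in 530 bp and was the longest of the 8. Depths of 44.4, 48.4 and 44.7 were found in LDM replicates 1 to 3, while PMM replicates 1 to 3 gave 75.9, 71.8 and 87.0. These were the highest depths of any of the 8 DMRs in both muscles. The means were 45.8 ± 2.19 and 78.2 ± 7.81 (SD, n = 3), and the change on the log2 scale was 0.76 (SE 0.10, adjusted p of limma 0.000264).

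DMR B lay in the same intron, 24977 bp further on, from 149488622 to 149488662, and packed 5 CpGs into 41 bp. LDM replicates 1 to 3 gave depths of 25.8, 26.9 and 28.5, while PMM replicates 1 to 3 gave 16.7, 12.6 and 16.4. It was lower in every PMM library, with means of 27.1 ± 1.34 and 15.2 ± 2.32 (SD, n = 3). The change of -0.80 on the log2 scale (SE 0.16, adjusted p of limma 0.000968) was 1.74-fold and among the smallest losses, larger than 6.34% of the listed losses.

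The DMR of *GSK3B* in an internal intron, from 149649764 to 149649892, had 9 CpGs in 129 bp and was annotated to 3 transcripts. LDM replicates 1 to 3 gave depths of 30.3, 27.1 and 30.6, while PMM replicates 1 to 3 gave 14.5, 8.53 and 10.4. All PMM libraries lay below those of LDM, with PMM replicate 1 the nearest. The means were 29.3 ± 1.96 and 11.2 ± 3.08 (SD, n = 3), and the change on the log2 scale was -1.35 (SE 0.20, adjusted p of limma 0.000298), or 2.54-fold lower. Without PMM replicate 1 it was -1.54, and without PMM replicate 2 it was -1.19.

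Where a gene held several DMRs, the ratio of their depths within a library does not depend on the factor by which that library was scaled. The depth of the *ENO1* first intron over that of the exon was 0.827, 0.913 and 0.899 in LDM replicates 1 to 3, while PMM replicates 1 to 3 gave 4.82, 29.6 and 7.33. The exon thus carried slightly more depth than the intron in every LDM library and far less in every PMM library. The 29.6 of PMM replicate 2 rests on only 5 overlaps of a read with a CpG in the exon. For *GSK3B*, DMR A over DMR B ran from 1.57 to 1.79 in LDM and from 4.54 to 5.72 in PMM, and DMR A over the internal intron DMR from 1.46 to 1.79 and from 5.22 to 8.42. DMR B over the internal intron DMR, both lower in PMM, ran from 0.851 to 0.996 in LDM and from 1.15 to 1.58 in PMM. LDM and PMM were fully separated in each of these ratios. For pairs of opposite direction this follows from the separation of the single DMRs and adds nothing to it. The ratios are given as a description, since the DMRs were listed for their differences. They are not adjusted for CpG density, which was 1.70 CpGs per 100 bp in DMR A and 12.2 in DMR B. With a trend on density subtracted, as described below, DMR A differed between the muscles by -0.25 and DMR B by 0.14, neither with a call. After that step DMR A thus no longer rose relative to DMR B in PMM. An exact permutation test of 3 against 3 could not go below p = 0.1.

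**Figure D2:**
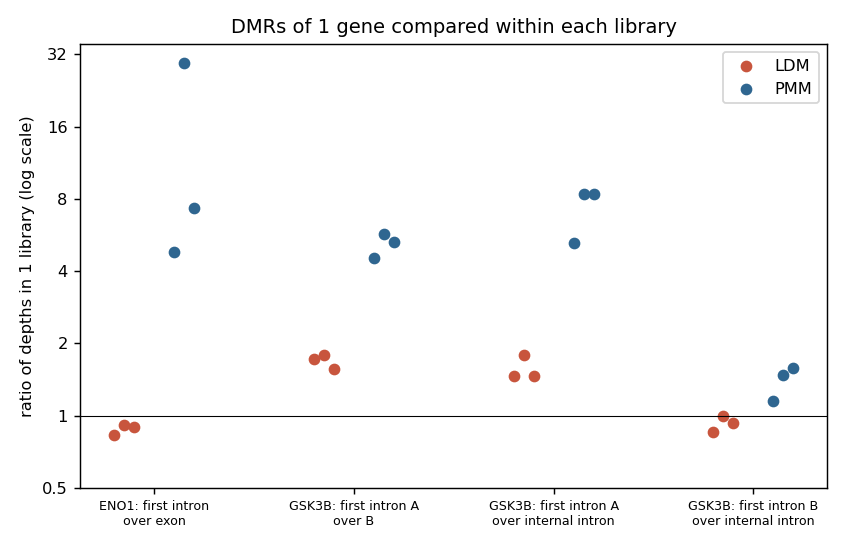
Ratio of the depths of a pair of DMRs in the same gene, on a log scale, with 1 point per library (LDM red, PMM blue). In *ENO1* the ratio lay between 0.827 and 0.913 in LDM and between 4.82 and 29.6 in PMM. The 29.6 is that of PMM replicate 2, with 5 overlaps of a read with a CpG in the exon.

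The order of the DMRs by depth changed between the muscles. In LDM, *GSK3B* DMR A was highest, followed by the *GSK3B* internal intron, *HK2* and *GSK3B* DMR B, of which neighbours in the order overlapped. *PFKFB4* stood apart from its neighbours, and the *ENO1* exon, the *ENO1* first intron and *GPI* followed with overlapping libraries. In PMM, *GSK3B* DMR A, *HK2* and *PFKFB4* followed each other without overlap. The *ENO1* first intron and *GPI* then overlapped, as did *GSK3B* DMR B and the *GSK3B* internal intron below them, and the *ENO1* exon was lowest. Depth rises with the number of CpGs on a fragment, so this order does not rank the DMRs by their methylation level per CpG.

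The DMRs also differed in how closely their CpGs were packed. The 5 DMRs that were higher in PMM had 1.70 to 6.10 CpGs per 100 bp, and the 3 that were lower had 6.98 to 12.2, so that these ranges did not overlap. The densities of the gains were 1.70 in *GSK3B* DMR A, 2.28 in *GPI*, 2.89 in *HK2*, 3.93 in *PFKFB4* and 6.10 in the *ENO1* first intron. The losses had 6.98 in the *GSK3B* internal intron, 7.14 in the *ENO1* exon and 12.2 in *GSK3B* DMR B. Over all listed DMRs gains and losses overlapped in every range of density, but the medians differed in the same direction, with a median of 4.0 CpGs per 100 bp for gains and 7.63 for losses. When the list was divided into 4 classes of density of about equal size, 93.9% of the sparsest class were higher in PMM, as were *HK2*, *GPI* and *GSK3B* DMR A, which belonged to it. Of the next class, that of *PFKFB4*, 76.1% were higher. The third class held both *ENO1* DMRs and the *GSK3B* internal intron, and 37.1% of it were higher. The densest class held *GSK3B* DMR B, and 16.7% of it were higher.

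**Figure D3:**
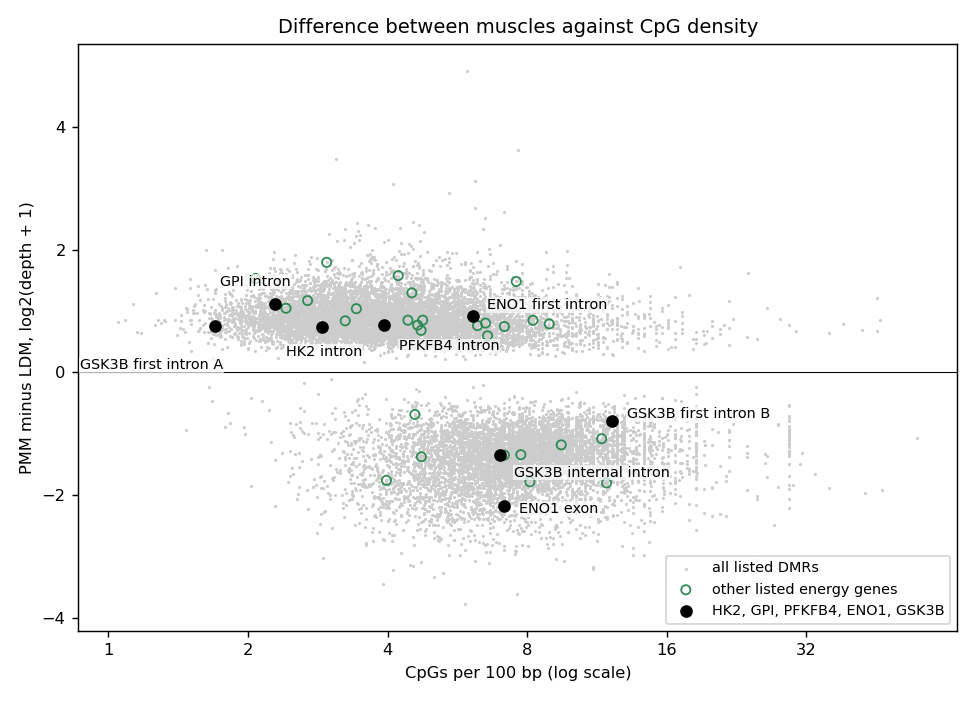
Difference PMM minus LDM on the log2(depth + 1) scale against CpGs per 100 bp (log scale), with all 15633 listed DMRs in grey, the 8 DMRs in black and the DMRs of other energy metabolism genes as green rings. The gains among the 8 DMRs lie at 1.70 to 6.10 CpGs per 100 bp and the losses at 6.98 to 12.2.

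To set each DMR beside listed DMRs of like density, a smooth trend of log2(depth + 1) on density was subtracted in each library and the fit was repeated. The trend was drawn through listed DMRs, which were selected for a difference, so it takes away whatever difference these DMRs share at a given density, of whatever origin. The share of listed DMRs that passed in their own direction after this step depended on density, at 398 of 3910 DMRs of the sparsest class, 61.9% of the next, 90.2% of the third and 50.7% of the densest. The 3 DMRs of the third class, both of *ENO1* and the *GSK3B* internal intron, passed, as most DMRs of that density did. The *ENO1* first intron kept its gain, at 1.29 (SE 0.19, adjusted p of limma 0.000357), and the exon kept its loss, at -1.50 (SE 0.36, adjusted p 0.00629). The *GSK3B* internal intron kept a smaller loss of -0.71 (SE 0.17, adjusted p 0.00639).

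The other 5 DMRs no longer passed the threshold of limma after this step. The difference was -0.18 in *HK2* (95% interval -0.44 to 0.09), 0.13 in *GPI* (-0.30 to 0.56) and 0.08 in *PFKFB4* (-0.23 to 0.39). It was -0.25 in *GSK3B* DMR A (-0.52 to 0.02) and 0.14 in *GSK3B* DMR B (-0.16 to 0.44). The signs of *HK2* and of both *GSK3B* first intron DMRs were thus opposite to those as deposited, without a call. Intervals of this width still allow a departure from the trend in either direction. In all, 3 of the 8 DMRs passed, against 55.9% of all listed DMRs, and all 3 kept their direction. The passes all fell in the third density class, where most DMRs passed, and none in the sparsest, where few did. *PFKFB4* and *GSK3B* DMR B did not pass, although 61.9% and 50.7% of their classes passed in their own direction. Nothing is read from this about the genes. Among all listed DMRs that passed, 3787 were higher and 4948 were lower, where 8743 and 6875 had passed without the step, and the median difference moved from 0.56 to -0.10.

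**Figure D4:**
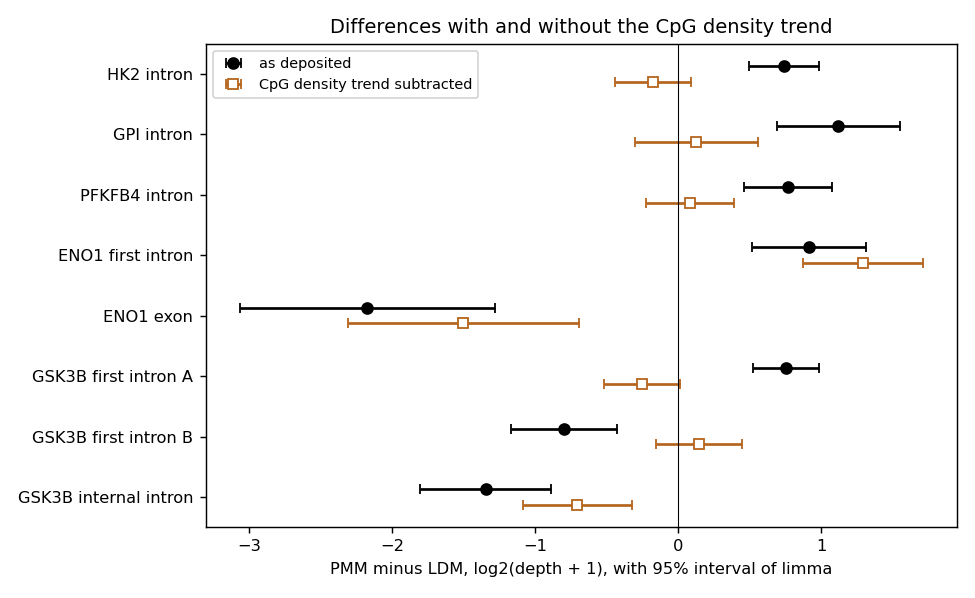
Difference PMM minus LDM on the log2(depth + 1) scale with its 95% interval from limma, as deposited (black circles) and with the trend on CpG density subtracted in each library (open squares). The *ENO1* DMRs and the *GSK3B* internal intron stay clear of 0, at 1.29, -1.50 and -0.71, and the intervals of the other 5 include 0.

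Within their own density class and direction, the sizes were spread widely. The *ENO1* exon exceeded 93.5% of the 2452 losses of its class and the *ENO1* first intron 63.5% of the 1446 gains. *GPI* exceeded 79.0%, *GSK3B* DMR A 30.1% and *HK2* 27.8% of the 3671 gains of the sparsest class. *PFKFB4* exceeded 38.7% of 2980 gains, the *GSK3B* internal intron 42.4% of 2452 losses and *GSK3B* DMR B 7.34% of 3254 losses.

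None of the 8 DMRs lay in a promoter, whereas 478 of the listed DMRs did. With 7 in introns and 1 in an exon, they all belonged to the 5544 DMRs annotated to introns or exons, of which 57.9% were higher in PMM. Over the whole list 44.0% of DMRs were lower in PMM, and the DMRs near the 8 went both ways. The 3 listed DMRs within 500 kb of the *HK2* DMR were all lower in PMM, the nearest being 134.8 kb away. Around *PFKFB4*, 1 of 7 was higher, and the nearest, 43.7 kb away in an exon of *COL7A1*, fell by 2.44 on the log2 scale. Around *GPI*, 1 of 4 was higher. Of 6 around the *ENO1* first intron 1 was higher, and of 6 around the *ENO1* exon 2 were, each count including the other *ENO1* DMR. Around *GSK3B*, 1 of 4 was higher near DMR A, 3 of 5 near DMR B and 4 of 5 near the internal intron DMR, again with its other DMRs included. These counts are not adjusted for CpG density, with which direction changed over the list. The nearest DMRs on either side of *HK2* had 6.35 and 7.5 CpGs per 100 bp, against 2.89 in *HK2*. The DMR in *COL7A1* had 4.39, against 3.93 in *PFKFB4*.

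The 5 genes were then set among other genes of glucose use. A list of 122 such genes, the 5 included, was divided into glycolysis, control of fructose 2,6-bisphosphate and the gluconeogenic bypass, glycogen turnover, the fate of pyruvate and lactate, and glucose uptake. Of these, 24 genes had a listed DMR in an intron, an exon or the 2 kb downstream, with 36 DMRs, and none in a promoter. All passed the threshold, 24 with a gain and 12 with a loss in PMM, or 66.7% higher, against 56.0% of all listed DMRs. Among listed DMRs in exons or introns the share was 57.9%. The 36 DMRs also had a lower median density, at 4.75 CpGs per 100 bp against 5.38 over the list, so nothing is read from the excess of gains. By gene, 13 were higher in every listed DMR, 4 were lower in every one and 7 held both directions. The median size of the log2 difference was 1.04, as over all listed DMRs. After subtraction of the density trend 25 of the 36 passed, all in the same direction, and outside the 5 genes 22 of 28 did. Of all listed DMRs, 53.2% passed in their own direction. That share depends strongly on density, and these DMRs were not compared class by class, so nothing is read from the difference.

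In glycolysis, the platelet-type phosphofructokinase *PFKP* was divided like *ENO1*. Its first intron held a DMR that was lower in PMM, at 27.7 ± 4.23 in LDM and 8.17 ± 5.38 in PMM (SD, n = 3), with a log2 difference of -1.79 (adjusted p of limma 0.000774). An internal intron DMR of *PFKP* was higher, at 8.64 ± 4.13 and 26.4 ± 4.57 (SD, n = 3), with a difference of 1.58 (adjusted p 0.000577). *HKDC1*, a hexokinase domain gene related to *HK2*, was 1.69-fold higher. No listed DMR carried the symbol of *PFKM*, *PYGM*, *GYS1* or *LDHA*, the phosphofructokinase, glycogen phosphorylase, glycogen synthase and lactate dehydrogenase best known from fast muscle.

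Among the genes that control fructose bisphosphates, *PFKFB2*, a relative of *PFKFB4*, was 1.51-fold higher in an exon DMR with depths from 98.0 to 114.8 in LDM and from 150.3 to 172.9 in PMM. *FBP2*, the muscle form of fructose 1,6-bisphosphatase, was higher in a pair of intron DMRs. In its first intron the depth was 32.0 ± 5.19 in LDM and 58.1 ± 5.03 in PMM (SD, n = 3), with 8.24 CpGs per 100 bp. The difference there of 0.85 became 1.65 (adjusted p of limma 2e-05) once the density trend was subtracted. In the internal intron DMR of *FBP2* the difference shrank with that step, from 0.77 to 0.37 (adjusted p of limma 0.0174). *C12orf5*, which encodes the fructose 2,6-bisphosphatase TIGAR, was 1.61-fold lower.

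In glycogen turnover, 10 DMRs gained and 5 lost depth in PMM, *GSK3B* included. The phosphorylase kinase subunit *PHKB* was 1.80-fold higher, and phosphoglucomutase *PGM1* 1.61-fold and 2.25-fold in a pair of last intron DMRs. Like *GSK3B*, 3 further genes held both directions. *PGM2L1*, which makes glucose 1,6-bisphosphate, was 3.46-fold higher just downstream and 1.74-fold higher in an exon, but 3.39-fold lower in an intron. The phosphorylase kinase subunit *PHKA2* was 1.80-fold and 1.79-fold higher and 2.60-fold lower, and the glycogen targeting subunit *PPP1R3F* 1.73-fold higher and 3.49-fold lower. Of the DMRs of these named genes, 1 of *PGM1*, 1 of *PHKA2* and, as given above, *GSK3B* DMR A and DMR B did not pass after subtraction of the density trend.

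Genes of pyruvate use were evenly divided, with 3 DMRs higher and 3 lower. *PDK2*, which shuts off pyruvate dehydrogenase, was 1.68-fold higher, and the dehydrogenase subunit *DLD* 2.79-fold. The subunits *PDHX* and *PDHB* were 2.12-fold and 2.55-fold lower, where the *PDHB* DMR lay just downstream and was also annotated to *PXK*. The mitochondrial pyruvate carrier *MPC2* was 2.27-fold lower in its last intron and 2.45-fold higher downstream. After subtraction of the density trend *PDHX* (-0.15, adjusted p of limma 0.399) and the last intron of *MPC2* (-0.30, adjusted p 0.0872) did not pass. In glucose uptake, *TBC1D4*, a regulator of the insulin-responsive glucose transporter, was 2.05-fold higher in its last exon, and its relative *TBC1D1* was lower, from 50.0 ± 0.675 in LDM to 19.3 ± 3.46 in PMM (SD, n = 3). *SLC2A13*, a transporter of inositol from the same family as the glucose transporters, was 2.89-fold higher. The difference of *TBC1D4* was 0.22 (adjusted p of limma 0.335) with the density trend subtracted and did not pass.

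**Figure D5:**
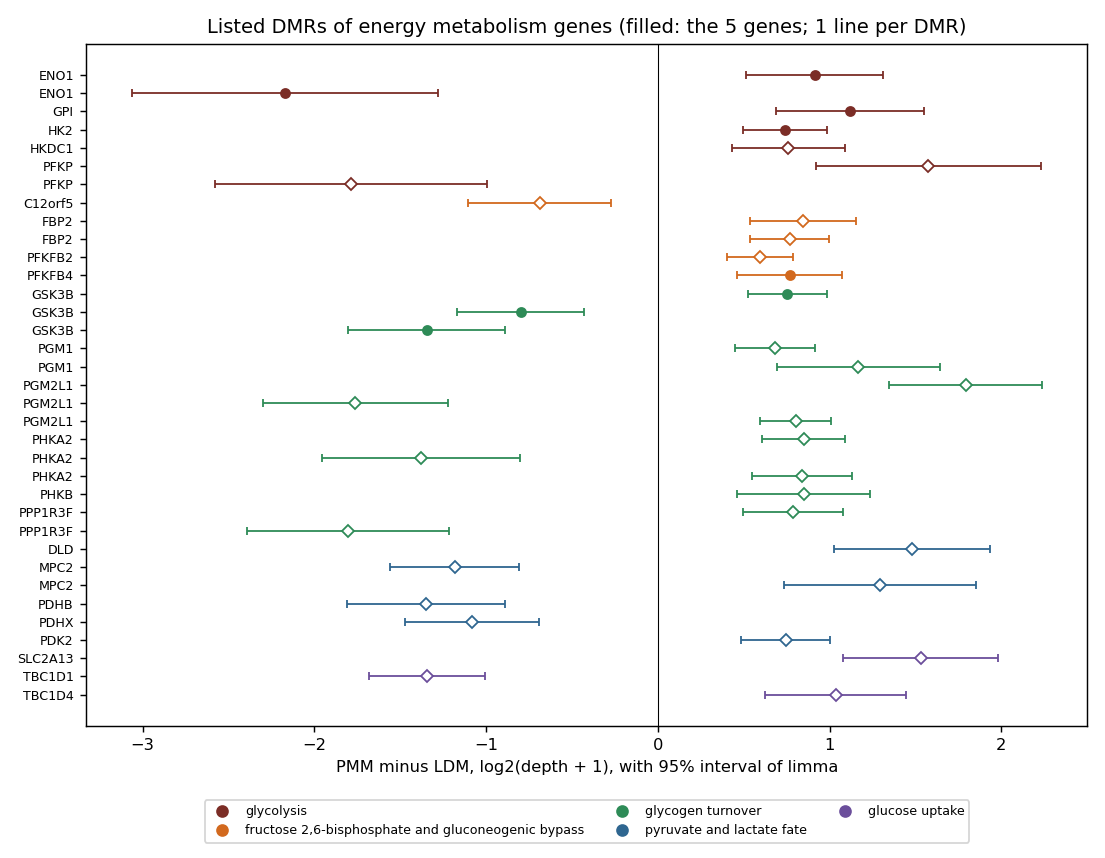
Difference PMM minus LDM on the log2(depth + 1) scale with its 95% interval from limma for 35 of the 36 listed DMRs of energy metabolism genes, coloured by list, with the 8 DMRs of *HK2*, *GPI*, *PFKFB4*, *ENO1* and *GSK3B* filled. Of the 35 drawn, 23 lie above 0 and 12 below it, and *PFKP*, *PGM2L1*, *PHKA2*, *PPP1R3F*, *MPC2*, *ENO1* and *GSK3B* appear on both sides.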

How the data were processed

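MeDIP-seq reads had been filtered and aligned by the authors with SOAP2 to Sscrofa10.2. By the study's methods, CpGs with a depth under 10 were left out. CpGs that differed between the muscles had been joined into DMRs of 5 or more CpGs. Deposited depths of a library can still lie below 10, as in PMM in the *ENO1* exon (1.16 to 5.33). The deposited values are a coverage signal, the mean read depth per CpG of a DMR, with each library multiplied by 1 factor (1.00 to 1.21, 100% of depth sums being whole multiples of it within 0.1 steps). The authors' own means, p-values and false discovery rates for each DMR were not used, nor was a column on CpG island shores that reads yes in 18174 of 18176 rows. All source names read *longissimus dorsi*, so groups were taken from the titles, with which the tissue tags agree in muscle.

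Depths were fitted as log2(depth + 1) with limma 3.58.1 (trend in the variance) in R 4.3.3, with muscle as the only term, over all 15633 DMRs at an adjusted p of 0.05, and the fit was tested on simulated data. Library read totals were not used here. By the study's methods both muscles of every pig went into libraries, but no label ties a library to a pig. The p-values thus measure the spread between these libraries, which may be partly technical. The density trend was a natural spline with 5 degrees of freedom. All DMRs of the 5 genes, and every gene of the wider list with a listed DMR, are named, except 1 gene of that list that is counted but not reported here. Of that list, 4 genes were searched under an alias as well. A gene without a listed DMR was not shown to be alike in both muscles, since the table holds selected regions only. The genes, lists and alternatives were chosen with earlier results of these data known.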

Additional observations from a re-analysis of the deposited data

How the results depend on the processing

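Directions and calls of the 8 DMRs held under pseudocounts of 0.25 and 4, a minimum mean depth of 10, quantile normalization, division of libraries by their medians, no variance trend and each library left out. Without 1 library, calls over all DMRs ran from 8725 to 8737 higher and 6860 to 6871 lower. With the density trend subtracted, 1 of the 8 DMRs was called higher and 2 lower, and over all DMRs 3787 were higher (3683 with the replicate block as well). Under both, the sign turned in *HK2* (-0.18), *GSK3B* DMR A (-0.25), *GSK3B* DMR B (0.14), a *PHKA2* exon DMR (-0.014) and the median of all DMRs (-0.10). Their cause was not tested. That median was 0.56 as deposited, 0.71 with libraries divided by their medians and 0.10 with quantile normalization, under which *C12orf5* (-0.16) and *PFKFB2* (0.08) lost their calls.

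Whether equal replicate numbers mark the same pig is not known. Correlations of same-numbered deviations were 0.04, 0.24 and 0.02, and those of unlike numbers ran from -0.21 to 0.18. This leaves the pairing unsettled, so the comparison was unpaired. The replicate block gave 8736 higher and 6870 lower calls and ended no call of the 36 DMRs. Depth limits the *ENO1* exon DMR most, with 5 overlaps of reads and CpGs in PMM replicate 2.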
